A study of Mus musculus with 20 samples.

Results

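The glucocorticoid receptor gene Nr3c1 and 9 genes known to be induced through glucocorticoids, Fkbp5, Tsc22d3, Cebpd, Klf9, Zbtb16, Sgk1, Slc10a6, Mt1 and Mt2, were followed in dermal lymphatic endothelial cells (LECs) over the day. These 10 genes were selected by symbol from the 24062 gene symbols counted, in part on earlier measurements of the same time points, so their differences between time points are given as a description, with no p-value beside a gene, and the number past a threshold is set only beside that over all genes. All 10 passed the filter on low counts that left 19209 genes, with at least 135 reads in every library. LECs were sorted as CD31+podoplanin+ cells from digested ear skin of wild type C57BL/6 mice (C57BL/6N in the study's methods) at post natal day 56, at zeitgeber time (ZT) 1, 7, 13 and 19, where ZT counts hours after lights go on. No group was treated and none carried a mutation. Each of the 5 libraries per time point (20 in all) pooled 4 ears of 2 mice, so n counts pools. Levels are normalized counts, that is reads per gene divided by the library's TMM-scaled size, and an error is the SD over 5 pools unless it is named as an SE.

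Glucocorticoids enter cells by diffusion and bind the receptor NR3C1, which chaperones hold in the cytoplasm in a form that can take up hormone. The bound receptor moves to the nucleus and attaches to response elements made of a pair of inverted repeats, from which it raises the transcription of genes that shape metabolism, inflammation and its own signalling. In nocturnal rodents blood corticosterone climbs towards the onset of darkness, which here falls just before ZT13, and the enzymes encoded by Hsd11b1 and Hsd11b2 adjust its supply inside tissues. No hormone level was measured in these samples.

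Promoter windows, running from 250 bases before to 50 bases after an annotated start, were read from RefSeq (GRCm38.p6) for 7 of the 10 genes, 14 windows in all. No window was read for Nr3c1, Cebpd and Zbtb16, so their promoters were not searched. Whether RefSeq lists a start for these genes was not examined. Both strands were searched for the glucocorticoid response element, written as the hexamers AGAACA and TGTTCT with 3 bases between them, a palindrome in its 12 fixed bases. Only 3 of 32851 windows of this length (0.00913%) held it without a mismatch, and 1 of them belonged to Sgk1. That window, 1 of 6 for this gene, is shown for that reason, with the element in capitals, beginning 189 bases upstream of the start (chr10:21993640-21993939, plus strand).
Sgk1: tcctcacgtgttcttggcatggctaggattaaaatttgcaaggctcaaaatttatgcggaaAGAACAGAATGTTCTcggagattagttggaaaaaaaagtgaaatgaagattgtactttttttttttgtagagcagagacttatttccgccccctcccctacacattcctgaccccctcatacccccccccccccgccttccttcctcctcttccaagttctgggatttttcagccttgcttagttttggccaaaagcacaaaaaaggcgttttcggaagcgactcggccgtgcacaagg
The single window of Slc10a6 held 1 match with 2 mismatches, 164 bases before the start, shown in capitals (chr5:103629354-103629653, minus strand). A match with at most 2 mismatches was found in 1.84% of all windows.
Slc10a6: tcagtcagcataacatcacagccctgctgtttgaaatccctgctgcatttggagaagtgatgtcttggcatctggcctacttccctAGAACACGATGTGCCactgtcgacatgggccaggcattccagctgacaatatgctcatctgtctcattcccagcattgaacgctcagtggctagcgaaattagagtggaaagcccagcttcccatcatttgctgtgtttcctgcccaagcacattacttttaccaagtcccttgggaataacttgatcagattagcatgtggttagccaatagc
Another window of Sgk1 also held 1 match with 2 mismatches. None of the other windows, those of Fkbp5, Tsc22d3, Klf9, Mt1 and Mt2 included, held a match within 2 mismatches, which says only that these letters are not in these stretches.

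Metallothionein promoters are known for metal response elements, bound by the zinc sensor MTF1. Their core, searched as TGCACNC or TGCGCNC on both strands, is in capitals in the windows of Mt1 (chr8:94178839-94179138, plus strand) and Mt2 (chr8:94172368-94172667, plus strand), because these genes had the widest range over the libraries.
Mt1: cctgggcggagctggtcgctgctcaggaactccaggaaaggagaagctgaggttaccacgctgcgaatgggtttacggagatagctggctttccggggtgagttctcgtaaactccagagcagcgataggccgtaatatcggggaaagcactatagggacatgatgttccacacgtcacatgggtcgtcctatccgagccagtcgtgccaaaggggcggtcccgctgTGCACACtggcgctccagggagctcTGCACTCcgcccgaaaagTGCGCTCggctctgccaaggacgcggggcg
Mt2: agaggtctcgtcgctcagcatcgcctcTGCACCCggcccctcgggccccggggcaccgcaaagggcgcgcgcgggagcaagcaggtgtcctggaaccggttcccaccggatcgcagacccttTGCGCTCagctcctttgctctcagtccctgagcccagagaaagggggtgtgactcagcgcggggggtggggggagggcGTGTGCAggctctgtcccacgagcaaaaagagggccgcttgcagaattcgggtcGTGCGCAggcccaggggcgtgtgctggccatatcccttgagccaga
Mt1 held 3 cores and Mt2 held 4. At least 3 were present in 1.97% of all windows and at least 4 in 0.517%. A match in either search is a description of the sequence and was not tied to binding in these cells.

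Reads counted on genes ranged from 4475111 to 42002363 per library, and these were 12.7% to 81.6% of the reads that were placed either inside or outside a gene. The share was 20.2% to 29.5% at ZT1, 12.7% to 62.3% at ZT7, 20.1% to 79.9% at ZT13 and 35.0% to 81.6% at ZT19, so that ZT19 lay wholly above ZT1, and it was highest in ZT13 replicate 5 and ZT19 replicate 1. The identity of the cells was checked on 8 LEC markers, whose summed level lay between 45024 and 111093 in every library, with Mmrn1, an LEC matrix protein, the most abundant (26865 ± 10187, n = 20). None of the 8 differed among the time points (edgeR quasi-likelihood test, Benjamini-Hochberg adjusted, with 0 of 8 also at an unadjusted p under 0.05). Keratinocyte markers were present too, with a summed level over 12 genes of 36397 to 74757 at ZT1, 66372 to 185092 at ZT7, 11366 to 32620 at ZT13 and 94768 to 197991 at ZT19, and 6 of 12 differed among the time points (11 at an unadjusted p under 0.05). Of 8 fibroblast markers 1 differed (4 at an unadjusted p under 0.05), with summed levels of 6216 to 18368 at ZT1, 932 to 4415 at ZT7, 734 to 9745 at ZT13 and 1211 to 12955 at ZT19. Of 14 immediate early and heat shock genes, which tissue digestion is known to induce, 2 differed (9 at an unadjusted p under 0.05) and 9 had their highest mean at ZT13, with summed levels of 16359 to 39199 at ZT1, 14347 to 24131 at ZT7, 31400 to 88710 at ZT13 and 33720 to 42378 at ZT19. Summed leukocyte markers (8 genes) were at 267 to 716 at ZT1, 150 to 792 at ZT7, 139 to 547 at ZT13 and 3.57 to 219 at ZT19. For these ZT19 thus lay wholly below ZT1, and 0 of 8 differed (0 at an unadjusted p under 0.05, edgeR). No marker on these lists was at 0 in all libraries. In bulk RNA, more cells with a transcript and more transcript per cell cannot be told apart.

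Of the 10 genes, 6 had their highest mean at ZT13, 3 at ZT19 (Sgk1, Mt1 and Mt2) and 1 at ZT1 (Nr3c1), where 18.1% of all genes tested were highest at ZT13. For 3 genes this rested on 1 library, since Tsc22d3 was highest at ZT19 without ZT13 replicate 5 or ZT19 replicate 4, and without ZT19 replicate 4 Mt1 was highest at ZT1 and Mt2 at ZT7. Fkbp5, Slc10a6, Cebpd, Tsc22d3 and Zbtb16 passed the threshold among the 4 time points (an adjusted p under 0.05 over all genes tested, edgeR), 5 of 10 beside a background of 0.422% of all genes. For a curve with a period of 24 h, Cebpd, Fkbp5 and Slc10a6 passed, beside 0.0312% of all genes. In at least 1 of the 6 pairs of time points 3 of 10 passed, beside 0.63%. As the choice of the genes drew on these contrasts, nothing is read from the counts. The count of 5 became 2 with the replicate number as a block, 3 with the odds that a read lay on a gene as a covariate, 3 without ZT13 replicate 5 and ZT19 replicate 1 or without the 6 libraries with a TMM factor under 0.9, and 0 with the keratinocyte and fibroblast scores or the immediate early and heat shock score of each library as covariates (7 and 5 at an unadjusted p under 0.05, beside 23.5% and 18.2% of all genes in these fits). With single libraries left out it lay between 2 (without ZT13 replicate 4, where Fkbp5 and Slc10a6 passed) and 5. Fkbp5 and Slc10a6 passed in all 20 of these fits, Cebpd in 18, Tsc22d3 in 9 and Zbtb16 in 7. The count of 3 for the 24-h curve became 0 with the replicate block, with either score, without ZT13 replicate 5 and ZT19 replicate 1, and without any one of ZT1 replicate 3, ZT1 replicate 4, ZT7 replicate 3, ZT13 replicate 2 and ZT13 replicate 5. In these fits 0% to 0.0312% of all genes passed for the curve. The pair ZT13 against ZT1 called Cebpd, Fkbp5 and Slc10a6 (0.0208% of all genes), ZT19 against ZT1 called Slc10a6 (0.0156%) and ZT13 against ZT7 called Fkbp5 (0.0937%). All 5 libraries of ZT13 lay above all 5 of ZT1 for 5 of the 10 genes (0.489% of all genes) and above all 5 of ZT7 for 3 (0.255%), all 5 of ZT19 above all 5 of ZT1 for 3 (2.38%), and all 5 of ZT7 above all 5 of ZT1 for 1 (0.578%). The median log2 fold change of the 10 genes from ZT1 to ZT13 was 1.25, and that of all genes tested was -0.06. RLE in place of TMM scaling moved the median log2 fold change of all genes by 0.16 from ZT1 to ZT7, by 0.10 from ZT1 to ZT13, by -0.18 from ZT13 to ZT19 and by -0.23 from ZT7 to ZT19. It turned the sign of 3 of the 60 differences of the 10 genes, namely those of Cebpd from ZT7 to ZT19, of Mt1 from ZT1 to ZT7 and of Nr3c1 from ZT7 to ZT13.

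**Figure D1:**
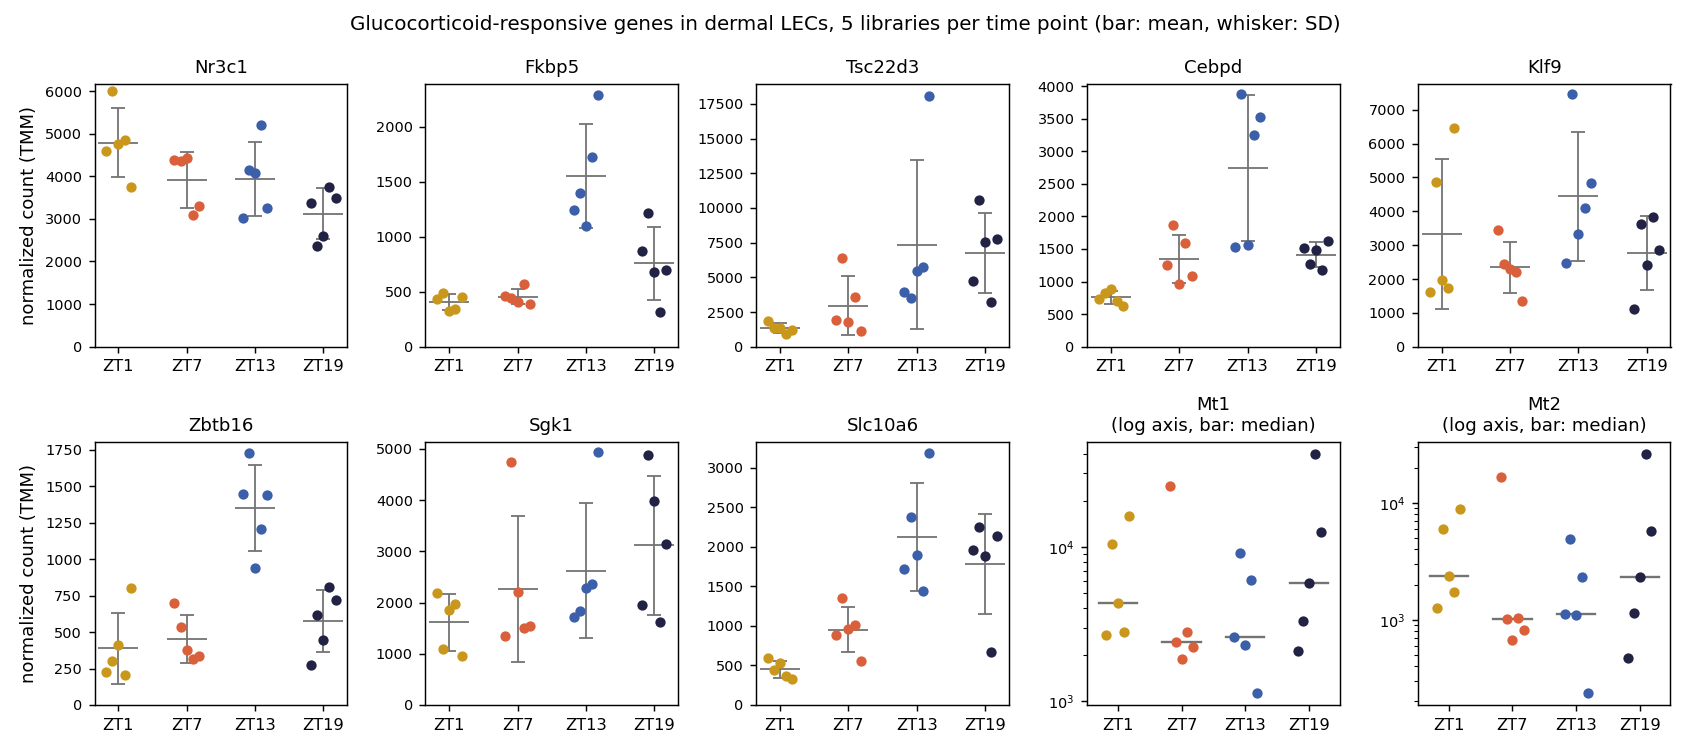
Normalized counts of the 10 glucocorticoid-responsive genes (vertical axes) in each library at ZT1, ZT7, ZT13 and ZT19, 5 points per time point in the order of the replicate numbers, with the mean and SD, or for Mt1 and Mt2 the median on a log axis. The 5 libraries of ZT13 lie above those of ZT1 for Fkbp5, Tsc22d3, Cebpd, Zbtb16 and Slc10a6, and Mt1 and Mt2 spread more within a time point than between them.

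Nr3c1, which encodes the receptor itself, was read at 4599, 5994, 4755, 4845 and 3743 at ZT1, at 4381, 4349, 4435, 3081 and 3306 at ZT7, at 3015, 4136, 4082, 5201 and 3245 at ZT13 and at 3377, 2374, 2599, 3743 and 3495 at ZT19. The 4 groups overlapped, with the ZT1 libraries mostly high and the ZT19 libraries mostly low. Means ran from 4787 ± 804 at ZT1 through 3936 ± 864 at ZT13 and 3910 ± 660 at ZT7 to 3118 ± 597 at ZT19, and of the neighbours in this order ZT13 and ZT7 did not differ beyond their spread, while the step from ZT7 to ZT19 exceeded both SDs. The log2 fold change from ZT1 to ZT19 was -0.62 with an SE of 0.29, and that from ZT1 to ZT13 was -0.28 with an SE of 0.29. Without ZT13 replicate 3 they were -0.40 and -0.12. That library belongs to neither ZT1 nor ZT19. The same removal raised the change from ZT1 to ZT13 of Klf9 from 0.42 to 0.73 and that of Mt2 from -1.05 to -0.73. With keratinocyte and fibroblast scores as covariates the changes of Nr3c1 were -0.97 to ZT19 and -0.13 to ZT13. Its highest library exceeded its lowest by 2.52 times, the narrowest range of the 10 genes. Nr3c1 lies on chromosome 18 (GRCm38, 39410545 to 39519421, minus strand).

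Fkbp5 encodes FKBP51, a co-chaperone that lowers the affinity of the receptor for hormone and that the receptor induces, which closes a feedback loop. It lies on chromosome 17 (28399094 to 28517527, minus strand). Its 5 libraries were at 430, 490, 320, 347 and 448 at ZT1 and at 466, 442, 410, 567 and 390 at ZT7. At ZT13 they were at 1249, 1401, 1101, 1725 and 2296, and at ZT19 at 876, 1218, 681, 313 and 699. Every ZT13 library thus exceeded every ZT1 and ZT7 library, by at least the step from 567 to 1101, while ZT19 overlapped all other time points, with its replicate 4 (313) the lowest of all 20 libraries. The mean of 1554 ± 475 at ZT13 was 3.82 times that of 407 ± 71.1 at ZT1, with a fitted log2 fold change of 1.93 and an SE of 0.33. From ZT7 (455 ± 69.2) to ZT13 the log2 fold change was 1.77 with an SE of 0.32, and from ZT13 to ZT19 (758 ± 329) it was -1.04 with an SE of 0.32. ZT1 and ZT7 differed by 0.16 with an SE of 0.32. With the immediate early and heat shock score of each library as a covariate, the fold change from ZT1 to ZT13 was 1.38 and that from ZT7 to ZT13 was 0.999, and with keratinocyte and fibroblast scores they were 1.63 and 0.95.

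Of the transcriptional effectors, Tsc22d3 encodes GILZ, a leucine zipper protein that mediates part of the anti-inflammatory action of glucocorticoids (chromosome X, 140539528 to 140600659, minus strand). It was read at 1833, 1381, 1379, 907 and 1209 at ZT1 and at 1917, 6385, 1809, 3560 and 1155 at ZT7. It was read at 3975, 3512, 5457, 5734 and 18102 at ZT13 and at 4728, 10598, 7519, 3192 and 7744 at ZT19. Both dark-phase groups lay wholly above ZT1, ZT7 overlapped all other groups, and 18102 in ZT13 replicate 5, the deepest library with 79.9% of reads on genes, stood alone. Means were 1342 ± 336 at ZT1, 2965 ± 2107 at ZT7, 7356 ± 6081 at ZT13, then 6756 ± 2878 at ZT19. The log2 fold change from ZT1 was 2.45 with an SE of 0.50 at ZT13 and 2.33 with an SE of 0.49 at ZT19. Without ZT13 replicate 5 and ZT19 replicate 1, the former was 1.79, and adjusted for the odds that a read lay on a gene it was 1.91, with 1.36 at ZT19. The change to ZT13 was 1.71 with the immediate early and heat shock score as a covariate and 2.34 with keratinocyte and fibroblast scores.

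Cebpd encodes C/EBP-delta, an inflammation- and hormone-inducible transcription factor (chromosome 16, 15887286 to 15891031, plus strand). Its libraries were at 739, 825, 889, 706 and 618 at ZT1, at 1258, 1864, 958, 1585 and 1089 at ZT7, at 1526, 3876, 1563, 3250 and 3526 at ZT13 and at 1520, 1264, 1481, 1181 and 1626 at ZT19. All libraries of ZT7, ZT13 and ZT19 exceeded all those of ZT1, and those of ZT13 split into a pair within the range of ZT7 and a set of 3 above every other library. The means were 755 ± 105, 1351 ± 371, 2748 ± 1121 and 1415 ± 185 in the order of the day. From ZT1 the log2 fold change was 0.84 (SE 0.31) at ZT7, 1.86 (SE 0.32) at ZT13 and 0.90 (SE 0.31) at ZT19. It was 1.38 at ZT13 with keratinocyte and fibroblast scores as covariates and 1.32 with the immediate early and heat shock score. The change to ZT19 was 0.47 adjusted for the odds that a read lay on a gene and 0.60 with the immediate early and heat shock score.

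Zbtb16 encodes PLZF, a zinc finger repressor that is strongly glucocorticoid-inducible in many cells (chromosome 9, 48654297 to 48836222, minus strand). It was at 227, 300, 414, 209 and 800 at ZT1, at 703, 532, 374, 313 and 334 at ZT7, at 1448, 1726, 942, 1207 and 1442 at ZT13 and at 276, 616, 449, 807 and 722 at ZT19. The lowest ZT13 library, at 942, exceeded all 15 libraries of the other time points, which overlapped each other. ZT13 averaged 1353 ± 294, against 390 ± 243 at ZT1, 451 ± 165 at ZT7 and 574 ± 214 at ZT19. The fitted log2 fold change was 1.80 (SE 0.38) from ZT1 to ZT13, 1.58 (SE 0.38) from ZT7 to ZT13 and -1.24 (SE 0.37) from ZT13 to ZT19. The first of these was 1.37 with keratinocyte and fibroblast scores as covariates and 1.35 with the immediate early and heat shock score, which also took the change from ZT7 to ZT13 to 0.86.

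Klf9, a Krüppel-like factor induced by glucocorticoids and thyroid hormone (chromosome 19, 23141226 to 23168134, plus strand), did not separate the time points. It ranged from 1605 to 6448 with a median of 1959 at ZT1, from 1353 to 3450 with a median of 2302 at ZT7, from 2483 to 7457 with a median of 4109 at ZT13 and from 1124 to 3842 with a median of 2858 at ZT19. The high ZT1 values were those of replicates 2 (4875) and 5 (6448), and the highest ZT13 value was that of replicate 2. From ZT7 to ZT13 the log2 fold change was 0.92 with an SE of 0.42, and from ZT1 to ZT13 it was 0.42 with an SE of 0.42. With the immediate early and heat shock score as a covariate both changed sign, to -0.80 and -0.61, and with keratinocyte and fibroblast scores they were 0.34 and -0.32. With single libraries left out the change from ZT1 to ZT13 ran from 0.14 (without ZT13 replicate 2) to 0.79 (without ZT1 replicate 5). Without the 6 libraries with a TMM factor under 0.9, which include ZT1 replicates 2 and 5 and ZT13 replicate 2, it was 1.07, the ZT13 libraries that remained (2483 and above) lay above those of ZT1 (1959 and below), and the change from ZT1 to ZT19 turned from -0.26 to 0.46.

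Sgk1 encodes a serine/threonine kinase that regulates ion channels and cell volume (chromosome 10, 21882184 to 21999903, plus strand), and it is the gene whose window held the unbroken response element shown above. Its libraries were at 2185, 1092, 1850, 1981 and 955 at ZT1 and at 1337, 4736, 2213, 1496 and 1540 at ZT7. They were at 1723, 1840, 2279, 2353 and 4932 at ZT13 and at 1951, 4873, 3977, 1624 and 3151 at ZT19. All 4 groups overlapped, and the highest libraries of ZT7 (4736), ZT13 (4932) and ZT19 (4873) stood close to each other. Its means ran, in steps smaller than the larger SD of the 2 neighbours, from 1613 ± 553 through 2264 ± 1422 and 2625 ± 1318 to 3115 ± 1361, and the log2 fold change from ZT1 to ZT19 was 0.95 with an SE of 0.41. Adjusted for the odds that a read lay on a gene it was 0.28.

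Slc10a6 encodes a transporter of sulfated steroids (chromosome 5, 103605711 to 103629403, minus strand). It was at 595, 443, 525, 370 and 333 at ZT1, at 884, 1350, 961, 1012 and 554 at ZT7, at 1721, 2384, 1896, 1443 and 3185 at ZT13 and at 1964, 2248, 1878, 676 and 2136 at ZT19. The ZT13 libraries lay above every ZT1 and ZT7 library, and those of ZT19 above every ZT1 library, with ZT19 replicate 4 far below its group. The mean of 453 ± 108 at ZT1 compared with 952 ± 285 at ZT7, 2126 ± 684 at ZT13, then 1780 ± 634 at ZT19. The log2 fold change from ZT1 was 2.23 (SE 0.35) at ZT13 and 1.97 (SE 0.34) at ZT19, and ZT13 and ZT19 differed by -0.26 (SE 0.33). The change from ZT1 to ZT13 was 2.03 with the immediate early and heat shock score as a covariate and 1.95 with keratinocyte and fibroblast scores. The change to ZT19 was 1.32 when adjusted for the odds that a read lay on a gene. Beside these differences, its level within time points followed the log2 odds that a read lay on a gene (r = 0.71 over 20 libraries).

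**Figure D2:**
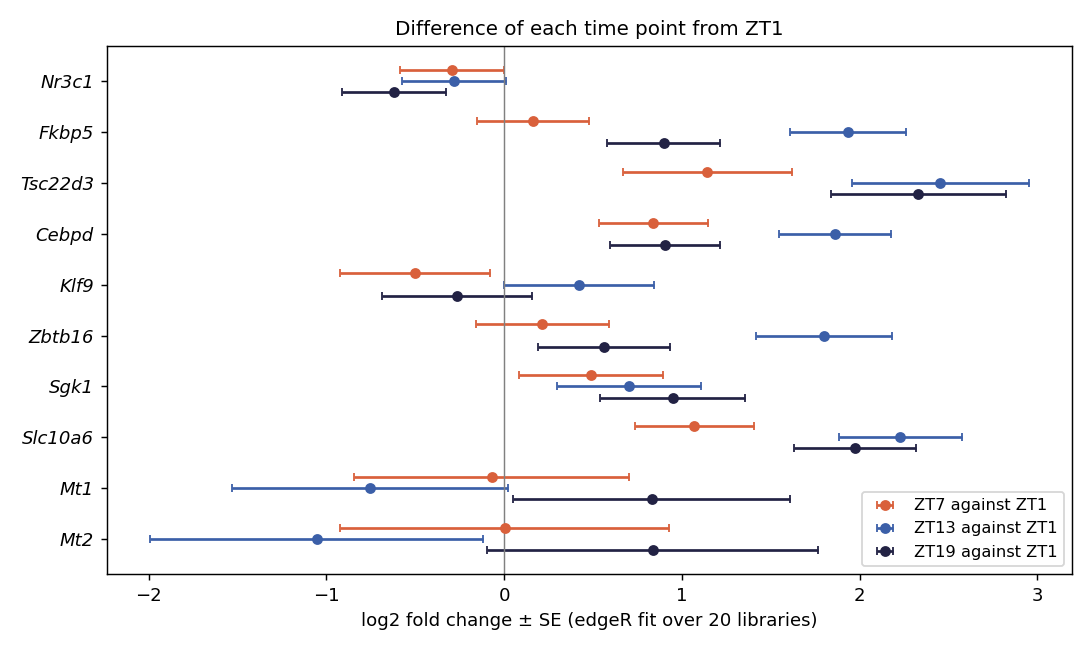
Log2 fold change against ZT1 of the 10 glucocorticoid-responsive genes at ZT7, ZT13 and ZT19 (horizontal axis), with bars for the SE of the edgeR fit over 20 libraries. At ZT13 Tsc22d3 (2.45), Slc10a6 (2.23), Fkbp5 (1.93), Cebpd (1.86) and Zbtb16 (1.80) lie at the right, and the bars of Mt1 and Mt2 are the widest. The 3 comparisons of a gene share the ZT1 libraries.

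The cosine curve with a period of 24 h reached its highest point at 13.1 h for Cebpd, 13.7 h for Zbtb16, 14.4 h for Fkbp5, 14.5 h for Slc10a6 and 14.7 h for Tsc22d3, all after lights off, with amplitudes of 0.93, 0.92, 1.04, 1.20 and 1.36 on the log2 scale. With 4 time points the hour of such a peak is an interpolation. The curve of Nr3c1 peaked at 4.28 h with an amplitude of 0.22. At ZT19 the distance from ZT13 was -1.24 (SE 0.37) for Zbtb16, -1.04 (SE 0.32) for Fkbp5 and -0.96 (SE 0.31) for Cebpd on the log2 scale, and -0.26 (SE 0.33) for Slc10a6 and -0.12 (SE 0.47) for Tsc22d3. The last turned to 0.54 without ZT13 replicate 5 and to 0.06 without ZT19 replicate 4. With keratinocyte and fibroblast scores as covariates the values were -0.87, -0.35, -0.44, 0.22 and 0.29 in the same order of genes. Adjusted for the odds that a read lay on a gene they were -1.27, -1.32, -1.21, -0.66 and -0.56. With the immediate early and heat shock score they were -1.02, -0.82, -0.72, -0.18 and 0.21. A difference between these genes in that step was not tested.

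Mt1 and Mt2 encode metallothioneins, small cysteine-rich proteins that bind zinc and copper and that metals as well as glucocorticoids induce. They are neighbours on chromosome 8 (plus strand, 94179082 to 94180327 for Mt1 and 94172664 to 94173568 for Mt2), and reads in their similar coding parts could be assigned to either. Mt1 was at 2670, 10372, 4329, 2823 and 15802 at ZT1, at 24915, 2411, 1881, 2822 and 2252 at ZT7, at 2622, 9202, 2329, 6071 and 1128 at ZT13 and at 2128, 3294, 5819, 40154 and 12587 at ZT19. Mt2 was at 1264, 6002, 2361, 1719 and 8809 at ZT1, at 16646, 1013, 673, 1041 and 809 at ZT7, at 1125, 4915, 1097, 2329 and 236 at ZT13 and at 470, 1134, 2309, 26337 and 5774 at ZT19. All time points overlapped for both, and the 6 highest libraries were the same for both: ZT1 replicates 2 and 5, ZT7 replicate 1, ZT13 replicate 2 and ZT19 replicates 4 and 5.

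The highest library exceeded the lowest by 35.6 times for Mt1 and by 112 times for Mt2, and the SD of log2 levels within time points was 1.41 and 1.78, beside 0.28 for Nr3c1 and 0.45 for Fkbp5. From ZT1 to ZT13 the log2 fold change was -0.75 with an SE of 0.78 for Mt1 and -1.05 with an SE of 0.94 for Mt2. With the immediate early and heat shock score as a covariate these were -2.01 and -2.54, and with keratinocyte and fibroblast scores -1.47 and -1.98. Without ZT1 replicate 5 they were -0.25 and -0.56, and without ZT13 replicate 2 they were -1.25 and -1.76. The 6 libraries with high metallothionein levels were the 6 of 20 with a TMM scaling factor under 0.9, and without them the change was -0.11 for Mt1 and -0.58 for Mt2. Over 20 libraries, after removal of time-point means, Mt2 correlated with the mean of 73 ribosomal protein genes at r = 0.99 and Mt1 at 0.97, and with the log2 TMM factor at -0.91 and -0.92. Among 10720 genes with a mean of at least 100, 43 of the 50 closest to Mt2 within time points encoded ribosomal proteins. These 50 had a median exonic length of 1730 bases, against 4727 bases for all such genes, and Mt1 (1246 bases) and Mt2 (588 bases) are short as well. Relative to the ribosomal protein mean of each library, the SD within time points was 0.41 for Mt1 and 0.71 for Mt2, a scaling chosen after seeing the data. On that scale Mt1 averaged 0.01 at ZT1, 0.26 at ZT7, 0.29 at ZT13, then 1.12 at ZT19, and Mt2 averaged -0.85, -0.98, -1.08 and -0.24 in the same order. What set the level of ribosomal protein transcripts apart in these 6 libraries was not tested.

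**Figure D3:**
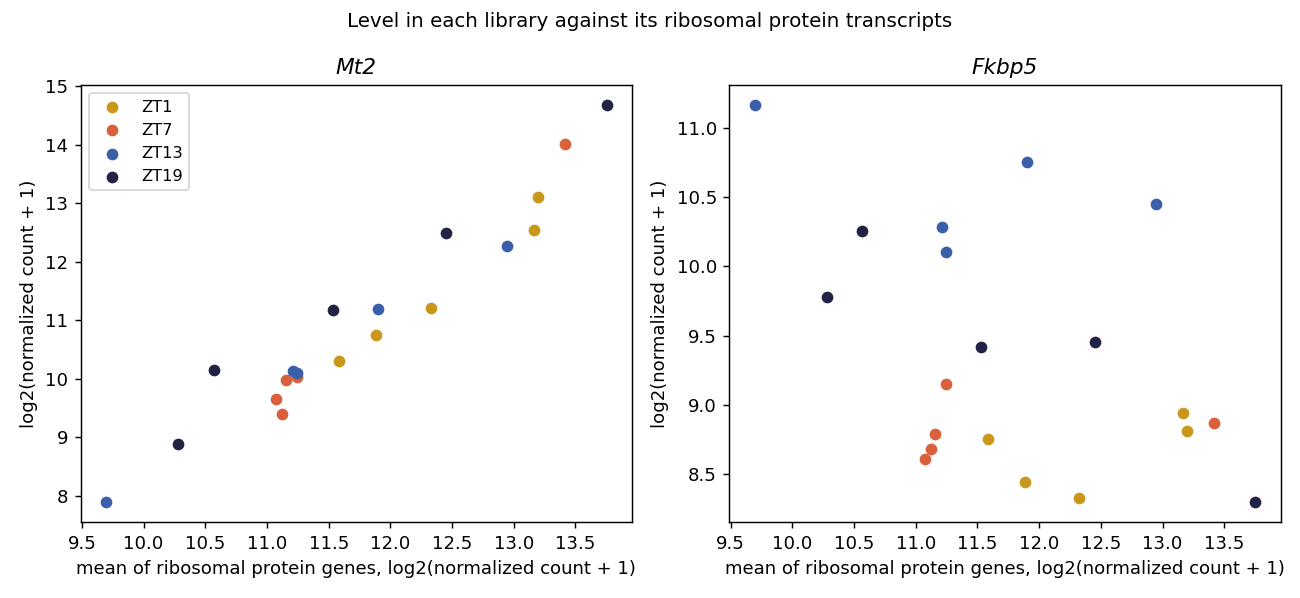
Log2(normalized count + 1) of Mt2 (left) and Fkbp5 (right) in each of 20 libraries against the mean log2 level of 73 ribosomal protein genes in the same library, coloured by time point. Mt2 follows the ribosomal protein mean across all time points (r = 0.99 within time points), whereas every ZT13 library lies above every ZT1 and ZT7 library for Fkbp5 (r = -0.52 within time points).

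Time-point means removed, the 10 genes formed sets that co-varied from library to library. Of 45 pairs 11 had an r above 0.6 and 4 an r below -0.5, with a median of 0.10. In the first set were Tsc22d3, Sgk1, Slc10a6 and Fkbp5, with r = 0.77 for Tsc22d3 and Sgk1, 0.74 for Tsc22d3 and Slc10a6, 0.67 for Sgk1 and Slc10a6, 0.66 for Fkbp5 and Slc10a6, 0.61 for Fkbp5 and Tsc22d3, but 0.36 for Fkbp5 and Sgk1. The value of 0.66 for Fkbp5 and Slc10a6 was 0.32 without ZT19 replicate 4. These 4 and Cebpd also followed the log2 odds that a read lay on a gene (r between 0.53 and 0.71), and once that was regressed out the values were 0.66 for Tsc22d3 and Sgk1, 0.51 for Tsc22d3 and Slc10a6, 0.46 for Fkbp5 and Slc10a6 and 0.39 for Fkbp5 and Tsc22d3. In the second set Klf9 and Zbtb16 (r = 0.76) went with Mt1 (0.68 and 0.69) and Mt2 (0.65 and 0.66), and all 4 followed the ribosomal protein mean (0.61 for Klf9 and Zbtb16). The first set went the other way with that mean, at -0.60 for Sgk1, -0.52 for Slc10a6, -0.52 for Fkbp5 and -0.49 for Tsc22d3. With the log2 TMM factor r was -0.73 for Klf9 and -0.71 for Zbtb16, and 0.29 to 0.46 in the first set. Among the 10 genes Nr3c1 reached at most 0.39, with Mt1 and Mt2. The points are 20 libraries that differ in depth and composition, and their part in these correlations was not otherwise tested.

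**Figure D4:**
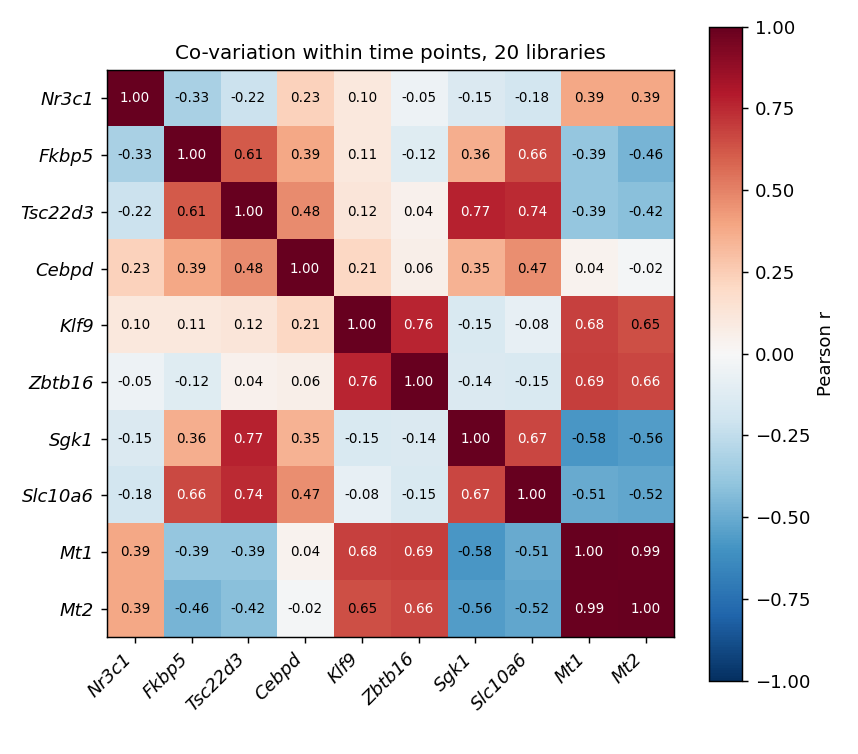
Pearson r of log2(normalized count + 1) between each pair of the 10 genes over 20 libraries after time-point means were subtracted (red positive, blue negative, values printed in the cells). Tsc22d3, Sgk1, Slc10a6 and Fkbp5 form a positive block, Klf9, Zbtb16, Mt1 and Mt2 another, and Sgk1 with Mt1 is the lowest pair (-0.58).

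Compared per exonic length, the level averaged over 20 libraries ran from 7.87 ± 5.39 CPM (counts scaled to library size) per kilobase for Fkbp5 and 12.3 ± 8.03 for Zbtb16, through Cebpd (39.3 ± 23.3), Sgk1 (46.1 ± 23.98), Nr3c1 (48.1 ± 11.1), Slc10a6 (58.7 ± 36.0) and Klf9 (62.8 ± 32.7), to Tsc22d3 (99.6 ± 89.9), Mt1 (587 ± 730) and Mt2 (688 ± 1037). Neighbours in this order lay within the larger of their SDs, except at the step from Zbtb16 to Cebpd. The order differed by time point. At ZT1 the values were 18.9 ± 2.64 for Cebpd, 20.03 ± 4.77 for Slc10a6, 29.0 ± 7.26 for Tsc22d3, 30.9 ± 10.6 for Sgk1, 58.5 ± 9.84 for Nr3c1 and 64.9 ± 43.1 for Klf9, so that Slc10a6 and Tsc22d3 lay below Nr3c1 there.

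Outside the 10 genes, those whose log2 levels followed Fkbp5 most closely over 20 libraries, time-point differences included, were Zfp36 (r = 0.88), Junb (0.84), Fos (0.82), Klf15 (0.81) and Fmo2 (0.80). Zfp36 encodes an mRNA-destabilizing protein, Junb and Fos encode immediate early AP-1 subunits, and Klf15 encodes a Krüppel-like factor. Of these Fos stood at 5074 ± 2099.7 at ZT1 and 12594 ± 3091 at ZT13, and Junb at 2307 ± 651 and 7738 ± 5944, given with no test because the choice used these levels. Among the closest to Tsc22d3 were Klf6 (0.88), Itm2c (0.88), Ccdc94 (0.87) and Cebpb (0.87), and closest to Mt2 were Rps18, Rpl18, Rpl32, Rpl37a and Rpl27 (0.97 each).

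A wider list of 89 genes of the pathway, sorted by role and without the 10, was tested in the same fit, and 87 passed the filter on low counts. Earlier results of these data were known when the list was drawn up, which limits what its p-values show. Zfp36 differed among the time points (edgeR quasi-likelihood test, Benjamini-Hochberg adjusted p = 0.0236, n = 5), with 1200 ± 316 at ZT1, 1042 ± 221 at ZT7, 3178 ± 751 at ZT13, then 1649 ± 631 at ZT19. It did not pass without ZT7 replicate 3 or without ZT13 replicate 2, 4 or 5, nor with the replicate block, with either score as a covariate, without ZT13 replicate 5 and ZT19 replicate 1, or without the 6 libraries of low TMM factor. With the immediate early and heat shock score Rhob alone of the 87 passed. In the fit without covariates Zfp36 was the only 1 of 87 to pass, and with the 24-h curve none of the 87 did, while 25 had an unadjusted p under 0.05 among the time points and 21 for the curve. Over all genes tested 15.7% had an unadjusted p under 0.05 among the time points and 9.23% for the curve. DESeq2 called 11 of the 87 among the time points and 6 for the curve, beside 2.9% and 0.362% of all genes. The median log2 fold change from ZT1 to ZT13 was 0.26 over the 87 genes.

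Of 30 other glucocorticoid-induced genes, 15 had their highest mean at ZT13 and the median log2 fold change from ZT1 to ZT13 was 0.66, where the median of all genes was -0.06. Dusp1, a phosphatase that switches off MAP kinases, was at 3130 ± 574 at ZT1, 3742 ± 1601 at ZT7, 10446 ± 8755 at ZT13, then 11837 ± 7370 at ZT19 (adjusted p = 0.0622, edgeR, n = 5). All 5 ZT13 libraries were above all 5 of ZT1 for 9 of the 87 genes, namely Dusp1, Zfp36, Errfi1, Ddit4, Txnip, Cxcl1, H6pd, Slc39a14 and Klf15, beside 0.489% of all genes. Txnip, which restrains glucose uptake, the most abundant of the 30, was at 15680 ± 3183 at ZT13 against 9154 ± 2458 at ZT1 (adjusted p = 0.593, edgeR). Nfkbia, the inhibitor of NF-kappaB, was at 3451 ± 1122 at ZT1 and 8492 ± 3705 at ZT13 (adjusted p = 0.246, edgeR).

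The 13 receptors, chaperones and co-regulators had the highest mean at ZT1 for 7 and at ZT13 for 2 (27.2% and 18.1% of all genes), a median log2 fold change from ZT1 to ZT13 of -0.38, and none past the threshold (3 with an unadjusted p under 0.05, edgeR). Hsp90ab1, a chaperone of the receptor, was at 19112 ± 10291 at ZT1 and 10174 ± 5090 at ZT13, Hspa8, another chaperone, was at 4982 ± 1660 and 4272 ± 1867, and the co-repressor gene Ncor1 was at 3880 ± 1245 and 2954 ± 399.9. At ZT19 they were at 14694 ± 8182, 7023 ± 780 and 2876 ± 1126, which for Hspa8 was the highest of its means.

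Among 9 genes of local hormone supply none passed and none had an unadjusted p under 0.05 (edgeR). Hsd11b1, whose enzyme regenerates active hormone, was at 845 ± 691 at ZT1, 386 ± 156 at ZT7, 1097 ± 942 at ZT13, then 914 ± 516 at ZT19, H6pd, which supplies its cofactor, ran from 513 ± 116 to 738 ± 198, and Abcb1b, a drug and steroid exporter, from 99.0 ± 26.7 to 154 ± 228. Of 15 glucocorticoid-repressed genes, Il1a and Ccl5 were filtered out as low, and none of the other 13 passed (3 with an unadjusted p under 0.05, edgeR). The median log2 fold change of these 13 from ZT1 to ZT13 was 0.97, and 6 had their highest mean at ZT13. Icam1, an adhesion molecule, was at 587 ± 90.2 at ZT1, 734 ± 294 at ZT7, 463 ± 296 at ZT13, then 908 ± 464 at ZT19. The chemokine gene Cxcl1 was at 40.1 ± 14.6, 80.3 ± 52.2, 227 ± 103 and 366 ± 473 in the same order, and Ccl2, another, at 25.5 ± 39.9, 41.4 ± 25.4, 16.5 ± 16.2 and 269.6 ± 403.

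Of the 8 genes of zinc handling and metallothionein control none passed (1 with an unadjusted p under 0.05, edgeR). Slc39a14, a zinc importer, was at 416 ± 148 at ZT1 and 874 ± 137 at ZT13 (adjusted p = 0.344, edgeR), Mtf1, the zinc sensor, lay between 212 ± 98.7 and 273 ± 45.4 in all 4 groups, and Mt4, the metallothionein of stratified epithelium, was at 136 ± 123 at ZT1, 611 ± 452 at ZT7, 26.8 ± 45.6 at ZT13, then 361 ± 437 at ZT19 (adjusted p = 0.171, edgeR). Of 14 paralogs of the 10 genes none passed (5 with an unadjusted p under 0.05, edgeR). Fkbp1a was at 4724 ± 2264 at ZT1 and 5924 ± 2673 at ZT13, Cebpb at 1944 ± 515 and 4140 ± 1795, Klf13 at 2307 ± 841 and 3218 ± 1073, and Klf15, named for its closeness to Fkbp5, did not pass.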

How the data were processed

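RNA of sorted dermal LECs was reverse transcribed full length with SMART-Seq v4, amplified, and made into libraries with NexteraXT, without molecular identifiers. The authors mapped reads with STAR to mm10 and counted them on genes with HTSeq 1.0.0, and deposited raw counts per gene symbol, which were used without normalization by the authors. The annotation and the strand setting of the counting are not given in the sources used here, so reads of overlapping and antisense genes could not be told apart, and reads shared by near-identical genes could be lost. The submitters' processing notes also name DESeq2 2.11.40.6. Rows that name no gene were left out of library sizes.

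Groups were taken from the labels. Counts were fitted in R 4.3.3 with edgeR 4.0.16 (TMM, filterByExpr by time point, quasi-likelihood F-test over 20 libraries, Benjamini-Hochberg over 19209 genes, threshold 0.05), among the 4 time points, between pairs and with a cosine curve whose period is 24 h. The standard error of a log2 fold change was derived from its F value. Log2 levels used a pseudocount of 1. P-values measure the spread between pools of mice. Each library counted at least 4475111 reads on genes, where 3 counts are 6.7e-05% of the shallowest library, a floor that covers counting error only. The 10 genes and all gene lists were chosen with earlier results of these data known, and all 10 genes are described. Of the wider list, those past the threshold and the 3 most abundant of each role are named, with, for Fkbp5, Tsc22d3 and Mt2, the 5 other genes most like them, of which 1 is not reported here. Klf15, Ddit4, Errfi1 and Mt4 were named after their values were seen. Gene positions and exonic lengths came from GENCODE M21 (GRCm38), and promoters from RefSeq. The alternatives were DESeq2 1.42.0, RLE factors, no filter, a replicate block, each library left out, only 2 time points in the fit, and, as covariates, the log2 odds that a read lay on a gene and marker scores. Added after seeing the data were the immediate early score, the removal of libraries named in the text and the scaling to ribosomal protein genes. The fits were run on simulated counts with known differences, which spread less between libraries than these data and did not differ in composition as these libraries do. How the fits behave at the spread seen here was not tested. Figures were drawn with matplotlib 3.10.9.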

Additional observations from a re-analysis of the deposited data

Results flagged for a closer look

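Within the groups of 5 libraries, the values of the 10 genes were searched for a library far from the rest, on the scale of log2(normalized count + 1). In 3 of 40 sets the distance from the nearest other, as a share of the whole range on that log2 scale, exceeded 0.71, where chance alone would give about 2. For Mt1 and Mt2 at ZT7 this was replicate 1 (24915 and 16646 normalized counts), with shares of 0.843 and 0.864. For Slc10a6 at ZT19 it was replicate 4, at 676 normalized counts, with a share of 0.851. ZT7 replicate 1 and ZT19 replicate 4 are both among the 6 libraries with a TMM factor under 0.9.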

How the results depend on the processing

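The log2 fold changes of the 10 genes each moved by less than their SE in the fit reported under DESeq2, RLE scaling, no filter on low counts, the replicate block and fits of only the 2 time points compared (60 of 60 each). The sign turned in 3, 3, 1, 2 and 1 of the 60, each time for a difference of at most 0.07 on the log2 scale in the values reported. They moved by more in 12 of 60 with the odds that a read lay on a gene, 29 of 60 with keratinocyte and fibroblast scores and 26 of 60 with the immediate early and heat shock score as covariates, in 4 of 60 without ZT13 replicate 5 and ZT19 replicate 1 and in 11 of 60 without the 6 libraries with a TMM factor under 0.9, and the sign turned in 4, 11, 10, 3 and 6 of these differences, none of which was called in the values reported. Counts of genes past the threshold changed more, and the cause was not tested.

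Of the 10 genes, the number called among the time points was 5, and it was 2 with the replicate block (0.161% of all genes) and 3 with the odds covariate (0.255%). Without ZT13 replicate 5 and ZT19 replicate 1 it was 3 (0.289%), and without the 6 libraries 3 (0.226%). It was 0 with keratinocyte and fibroblast scores (0%) and 0 with the immediate early score (0.37%), with 7 and 5 at an unadjusted p under 0.05 (edgeR, beside 23.5% and 18.2% of all genes). For the 24-h curve the number was 3, and it was 5 with DESeq2 (0.362% of all genes). It was 0 with the replicate block (0%), with keratinocyte and fibroblast scores (0.0104%), with the immediate early score (0.0312%) and without ZT13 replicate 5 and ZT19 replicate 1 (0.00507%). In the same order 5, 7, 5 and 5 had an unadjusted p under 0.05 (edgeR), beside 7.93%, 20%, 9.59% and 7.79% of all genes. Without the 6 libraries the number called was 1 (0.00983%). For any pair it was 3, and it was 6 with DESeq2, 5 with RLE scaling, 0 with the immediate early score, 0 without the pair of libraries and 1 without the 6 libraries, where 17.7%, 0.739%, 2.97%, 0.548% and 0.482% of all genes were called. With single libraries left out these numbers ranged from 2 to 5, from 0 to 4 (0 without ZT1 replicate 3 or 4, ZT7 replicate 3, ZT13 replicate 2 or 5) and from 1 to 4. Among the time points, Fkbp5 and Slc10a6 were called in all 20 such fits. Cebpd was not called in 2 (without ZT13 replicate 2 or 4), Tsc22d3 in 11 (any ZT1 library, ZT7 replicate 3 or 4, ZT13 replicate 4, ZT19 replicate 2, 3 or 5) and Zbtb16 in 13 (ZT1 replicate 1, 2, 3 or 4, ZT7 replicate 3, 4 or 5, ZT13 replicate 1, 2, 4 or 5, ZT19 replicate 3 or 5).

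Of the wider list, 1 gene was called among the time points, and it was 11 with DESeq2, 2 with RLE scaling, 2 without the pair of libraries (Cxcl1 and Rhob), 0 with the replicate block, 0 with keratinocyte and fibroblast scores and 0 without the 6 libraries (24, 27 and 29 at an unadjusted p under 0.05, edgeR), and 0 to 3 with single libraries left out. For the 24-h curve the number was 0, and 6 with DESeq2. Of all genes, 81 were called among the time points, against 672 with DESeq2, 31 with the replicate block, 49 with the odds covariate, 0 with keratinocyte and fibroblast scores (4511 at an unadjusted p under 0.05, edgeR), 71 with the immediate early score, 46 without the 6 libraries and 30 to 178 with single libraries left out. For the 24-h curve 6 were called, against 84 with DESeq2, 0 with the replicate block, 3 with the odds covariate, 2 with keratinocyte and fibroblast scores, 1 without the pair of libraries, 2 without the 6 libraries and 0 to 10 with single libraries left out.

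Same-numbered libraries came from different mice and correlated between -0.54 and 0.34 (12 of 30 pairs over 0.1, 5 of 20 libraries closest to their own number). The labels do not say what the replicate number stands for. Without a reference for these values, they cannot tell whether same-numbered libraries shared a step of handling. No pairing was used in the fit reported. The common coefficient of variation between libraries was 1.0004, which limits what 5 pools per time point can show.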
